A study of Mus musculus with 21 samples.

Results

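The response of the mouse heart to loss of Taz was compared between 2 genetic backgrounds, as a difference of differences: the log2 change of each gene in knockout over wild type hearts labelled CAST-F1, minus the same change in hearts labelled BL6J. The comparison used all 14 libraries of these 4 groups, of 21 libraries in the series, and 12100 of the 14732 genes in the deposited table had enough reads to be tested. Of these, 17 genes (0.14%) passed an adjusted p of 0.05, 5 with a positive difference (0.0413%) and 12 with a negative one (0.0992%). A positive difference means that the knockout change was higher in CAST-F1 than in BL6J hearts.

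The groups were 3 TAZ KO/Y and 3 TAZ WT/Y hearts of the CAST-F1 strain label, and 4 TAZ KO/Y and 4 TAZ WT/Y hearts of the BL6J label, which the design text calls C57/J. All were ventricles of males aged 2 months, and the wild type animals were littermates of the knockouts. A further 7 libraries, 3 KO/Y and 4 WT/Y, carried the AJ-F1 label and entered only where that is said. The labels do not describe the crosses behind the F1 names or the Taz allele. Nor is it stated whose litter an animal came from, or that every library had its own animal. The p-values therefore cover the variation among these libraries, part of which may be technical.

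Taz encodes tafazzin, a mitochondrial transacylase that remodels cardiolipin, the signature lipid of the inner mitochondrial membrane. Loss of human TAFAZZIN causes Barth syndrome, an X-linked disease with cardiomyopathy. Mitochondrial damage in heart muscle is known to start the integrated stress response, in which the transcription factor ATF4 raises genes of amino acid synthesis, transfer RNA charging and secreted stress hormones.

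Total counts were 3848172 to 4568610 in the CAST-F1 KO libraries, 5644877 to 6762988 in CAST-F1 WT, 4408874 to 5545328 in BL6J KO and 4322220 to 6777826 in BL6J WT. The summed level of 10 cardiomyocyte markers, such as Myh6 and Tnnt2, was 78770 to 89230 CPM (reads scaled to the TMM-adjusted total of their library) in CAST-F1 KO, 91620 to 125200 in CAST-F1 WT, 77130 to 87440 in BL6J KO and 107600 to 128000 CPM in BL6J WT, so the labelled tissue and its markers matched. The leading principal component, with 45.7% of the variance, separated KO from WT, and the next, with 23.1%, separated the backgrounds. The library BL6J KO 2 stood apart on the leading component, at -18.8 against -42.6 to -44.5 for the other BL6J KO libraries. In it 7 adipocyte markers summed to 104 CPM, against 2.22 to 8.31 CPM in the other BL6J KO libraries. Why BL6J KO 2 stood apart was not tested. Without this library 23 genes passed, 12 of the 17 among them. The CAST-F1 KO libraries and BL6J KO 3 also had a negative trend of level with transcript GC content, treated further on.

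Most of the knockout response was shared. Knockout changed 3695 genes (30.5%) in CAST-F1 hearts and 3896 genes (32.2%) in BL6J hearts, and 2583 genes passed in both. Of those 2583, 2579 moved in the same direction. Across all 12100 genes the log2 changes in the 2 backgrounds, which share no library, had a Pearson r of 0.841 and a Spearman rho of 0.761, given as a description across genes that are not independent. The median standard error of the difference was 0.25 on the log2 scale, against 0.189 for the CAST-F1 change and 0.163 for the BL6J change. A difference above 2-fold was estimated for 528 genes, and 517 of them did not pass. At an unadjusted p under 0.05 there were 427 genes with a positive (3.53%) and 598 with a negative difference (4.94%).

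**Figure D1:**
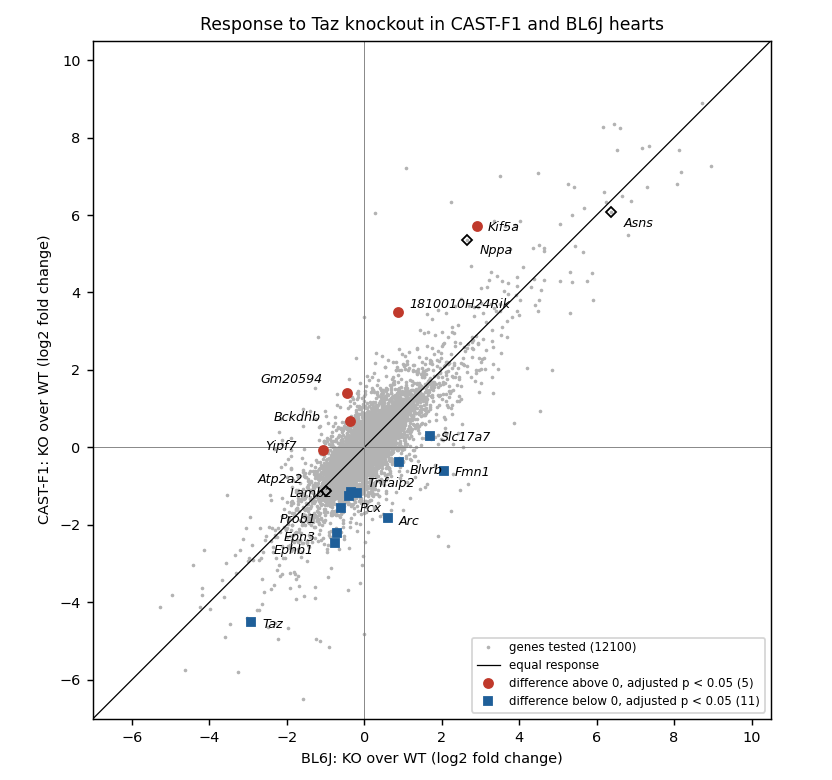
Knockout response of 12100 genes, with the log2 fold change of CAST-F1 KO over WT hearts on the y axis and of BL6J KO over WT hearts on the x axis. Genes on the line responded equally. Red circles mark the 5 genes with a positive difference and blue squares 11 of the 12 with a negative one, and open diamonds mark Asns, Nppa and Atp2a2, which did not pass. Most genes lie along the line, with Kif5a far above it and Fmn1 and Arc below it.

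The 17 genes fell into 4 patterns. For 8 genes knockout moved the level in the same direction in both backgrounds and further in CAST-F1. For 4 genes the change passed in CAST-F1 alone, for 3 in BL6J alone, and for 2 it passed in opposite directions. Among all 12100 genes, 1112 passed in CAST-F1 alone, 1313 in BL6J alone and 4 in opposite directions. The patterns rest on the values that chose the 17, so they only describe these genes. None of the 17 moved in the same direction and further in BL6J. Among all genes changed in the same direction in both backgrounds, 1597 had the larger estimate in CAST-F1 and 982 in BL6J (61.9% larger in CAST-F1), with a median ratio of the 2 sizes of 1.10. These genes had to pass in both backgrounds. The CAST-F1 change had fewer libraries and a larger standard error, so its estimates had to be larger on average to pass. The lean was smaller without 1 library: when BL6J KO 2 was left out, 52.7% of 2914 such genes were larger in CAST-F1 and the median ratio was 1.03. That fit also had fewer BL6J KO libraries, and other libraries were not left out for this measure. The source of the lean was not tested.

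The targeted gene was itself among the 17. Taz (chromosome X, 74281912 to 74290151, plus strand, GRCm38 in the GENCODE vM21 annotation) had 1.06, 2.59 and 2.29 CPM in CAST-F1 KO hearts, against 43.5, 56.4 and 36.6 CPM in CAST-F1 WT hearts. In BL6J it had 6.06, 5.96, 5.89 and 5.56 CPM in KO hearts, against 44.2, 47.9, 42.8 and 42.8 CPM in WT hearts. All 7 KO libraries lay below all 7 WT libraries, and the WT levels of the 2 backgrounds overlapped. Remaining Taz reads were lower in every CAST-F1 KO heart than in any BL6J KO heart, 26 reads over 3 libraries against 125 reads over 4. The log2 change was -4.52 ± 0.23 (SE) in CAST-F1 and -2.92 ± 0.17 in BL6J, a difference of -1.60 ± 0.31 (edgeR quasi-likelihood test, adjusted p = 0.0444). The call passed in 1 of 14 fits that each left out 1 library, with an estimate between -1.29 and -1.87 over all alternatives. Taz overlaps the Dnase1l1 gene on the opposite strand by 426 bases, and whether reads were counted by strand is not given in the sources used here.

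Kif5a had the largest difference of the genes that passed. It encodes a heavy chain of kinesin-1, a motor that carries cargo along microtubules and is best known from neurons, and lies on chromosome 10 (127225696 to 127263348, minus strand). Its level was 49.4, 49.2 and 59.0 CPM in CAST-F1 KO hearts, against 0.930, 1.27 and 0.690 CPM in CAST-F1 WT hearts. In BL6J hearts it was 12.3, 8.51, 11.95 and 12.4 CPM in KO, against 1.55, 2.12, 0.925 and 1.23 CPM in WT. Kif5a thus rose in both backgrounds without overlap, while the WT ranges of the backgrounds overlapped and every CAST-F1 KO heart was above every BL6J KO heart. The log2 change was 5.72 ± 0.25 (SE) in CAST-F1 and 2.91 ± 0.23 in BL6J, a difference of 2.80 ± 0.41 (adjusted p = 0.00934), and it passed under all 24 alternatives.

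The gene 1810010H24Rik, on chromosome 11 (107025681 to 107030443, plus strand), is protein-coding in the annotation. It had 24.9, 28.3 and 23.9 CPM in CAST-F1 KO hearts, against 2.23, 2.07 and 2.42 CPM in CAST-F1 WT hearts. In BL6J it had 3.49, 2.98, 3.64 and 2.97 CPM in KO hearts, against 2.17, 0.772, 0.925 and 3.07 CPM in WT hearts. The CAST-F1 groups were far apart and the BL6J groups overlapped. The log2 change was 3.51 ± 0.29 (SE) in CAST-F1 and 0.88 ± 0.32 in BL6J, a difference of 2.62 ± 0.45 (adjusted p = 0.0277, passed in 8 of 14 fits without 1 library). Gm20594, a gene of 449 bases on chromosome 6 (79817916 to 79818364), had 325, 391 and 485 CPM in CAST-F1 KO, against 151, 160 and 145 CPM in CAST-F1 WT. It had 104, 140, 194 and 163 CPM in BL6J KO, against 188, 190, 294 and 149 CPM in BL6J WT. It rose in CAST-F1 without overlap, and the BL6J groups overlapped. The difference was 1.85 ± 0.32 (adjusted p = 0.0444). Over 439 of its bases the transcript is 88.4% identical to mt-Rnr2, the mitochondrial large ribosomal RNA, so the source of its reads is uncertain.

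**Figure D2:**
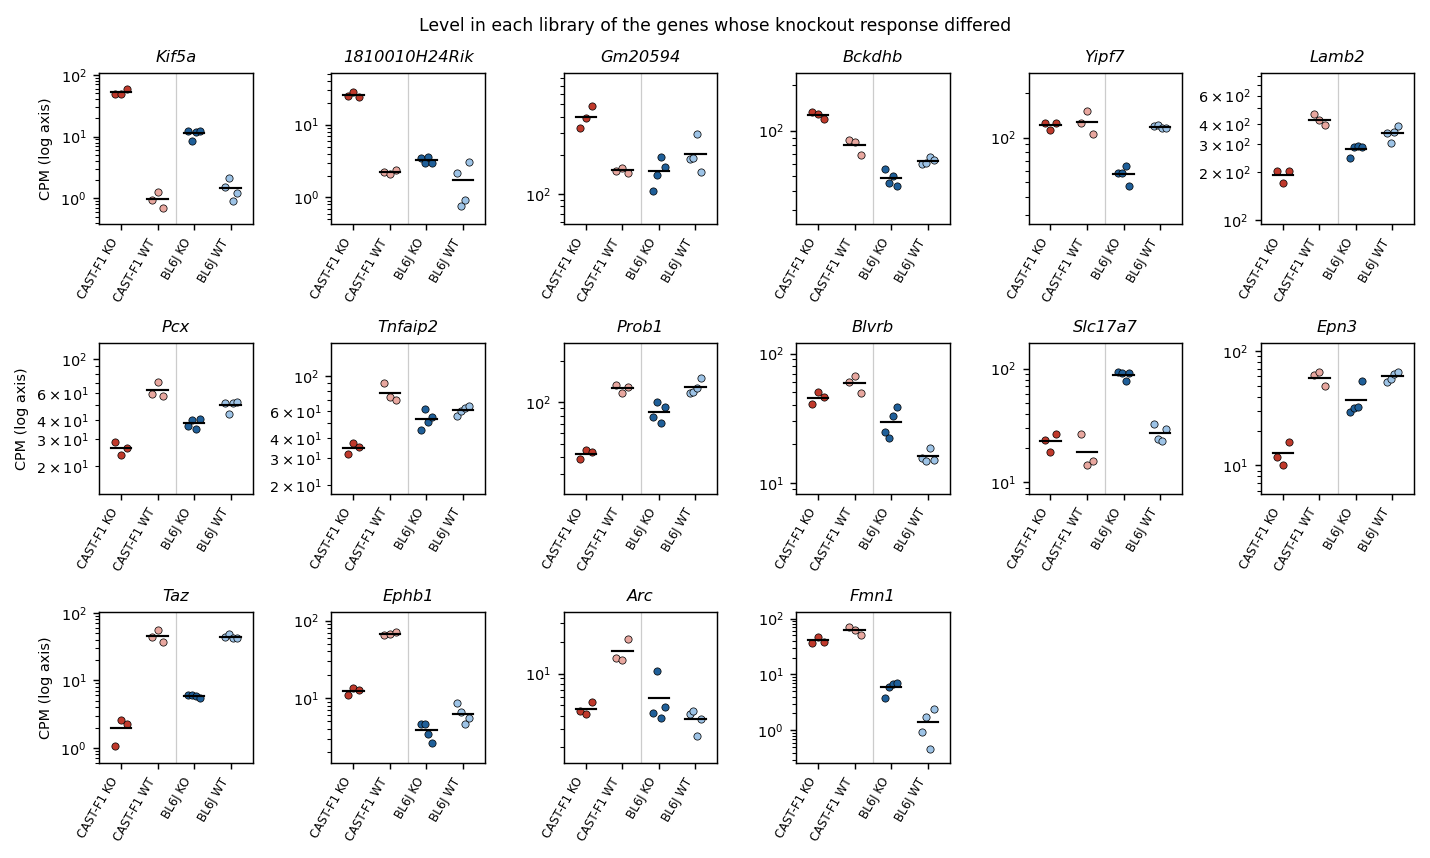
Level of 16 of the 17 genes in each of the 14 libraries, in CPM on log axes. Points are libraries and bars are group means, with CAST-F1 KO (n = 3), CAST-F1 WT (n = 3), BL6J KO (n = 4) and BL6J WT (n = 4) from left to right. Kif5a and 1810010H24Rik stand out in the CAST-F1 KO libraries, while Fmn1 and Ephb1 are already higher in CAST-F1 WT than in BL6J WT.

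Bckdhb and Fmn1 changed in opposite directions. Bckdhb encodes the E1 beta subunit of the mitochondrial branched-chain ketoacid dehydrogenase, which commits branched-chain amino acids to breakdown, and lies on chromosome 9 (83925145 to 84124240, plus strand). It had 133, 129 and 119 CPM in CAST-F1 KO hearts, against 87.1, 83.7 and 69.2 CPM in CAST-F1 WT hearts. It had 55.8, 44.7, 50.2 and 43.2 CPM in BL6J KO hearts, against 60.1, 60.6, 66.4 and 64.1 CPM in BL6J WT hearts. KO was above WT in every CAST-F1 library and below WT in every BL6J library. The log2 change was 0.67 ± 0.12 (SE) in CAST-F1 and -0.37 ± 0.11 in BL6J, and the difference of 1.04 ± 0.16 (adjusted p = 0.0103) passed under 22 of 24 alternatives.

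Fmn1 encodes formin 1, which nucleates unbranched actin filaments, and lies on chromosome 2 (113327736 to 113716767, plus strand). Its level was 36.0, 47.0 and 38.6 CPM in CAST-F1 KO hearts, against 72.0, 62.8 and 50.2 CPM in CAST-F1 WT hearts. In BL6J it was 3.86, 5.96, 6.75 and 7.04 CPM in KO hearts, against 0.930, 1.74, 0.463 and 2.46 CPM in WT hearts. It fell in CAST-F1 and rose in BL6J, and the lowest CAST-F1 library was above the highest BL6J library. The log2 change was -0.60 ± 0.20 (SE) in CAST-F1 and 2.06 ± 0.33 in BL6J, a difference of -2.67 ± 0.39 (adjusted p = 0.00934, passed under all 24 alternatives). Between WT hearts alone, CAST-F1 exceeded BL6J by 5.44 ± 0.27 on the log2 scale. Myom3, a sarcomere M-band protein chosen here after its values were seen, also passed in both backgrounds with opposite signs. It had log2 changes of -1.61 in CAST-F1 and 0.99 in BL6J, with an adjusted p of the difference of 0.0875.

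Yipf7, Slc17a7 and Blvrb changed in BL6J without passing in CAST-F1. Yipf7, a membrane protein of the YIP1 family of the secretory pathway, had 126, 113 and 125 CPM in CAST-F1 KO hearts, against 125, 150 and 105 CPM in CAST-F1 WT hearts. It had 57.8, 57.4, 64.6 and 47.1 CPM in BL6J KO hearts, against 120, 121, 116 and 116 CPM in BL6J WT hearts. The CAST-F1 groups overlapped, and every BL6J KO heart was far below every BL6J WT heart. Its difference was 0.99 ± 0.17 (SE, adjusted p = 0.0306).

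Slc17a7 encodes the vesicular glutamate transporter VGLUT1. It had 23.8, 18.3 and 26.7 CPM in CAST-F1 KO, against 26.4, 14.3 and 15.4 CPM in CAST-F1 WT, and these groups overlapped. It had 93.6, 91.7, 77.4 and 91.6 CPM in BL6J KO, against 32.5, 23.9, 23.1 and 29.7 CPM in BL6J WT, without overlap. The difference was -1.39 ± 0.27 (adjusted p = 0.0459). It passed in 2 of 14 fits without 1 library, and its adjusted p in edgeR was 0.704 with all 21 libraries in 1 fit. In AJ-F1 hearts Slc17a7 had 55.1, 59.7 and 87.9 CPM in KO, against 25.7, 31.3, 83.3 and 73.9 CPM in WT, and these groups overlapped. Blvrb, which encodes biliverdin reductase B, a flavin reductase of heme breakdown, had 40.9, 50.5 and 45.7 CPM in CAST-F1 KO and 59.9, 67.3 and 49.5 CPM in CAST-F1 WT. It had 24.6, 22.3, 32.7 and 38.7 CPM in BL6J KO and 15.7, 14.9, 18.7 and 14.9 CPM in BL6J WT. Blvrb rose in BL6J without overlap, and in CAST-F1 the groups overlapped slightly with KO lower on average. Its difference was -1.26 ± 0.24 (adjusted p = 0.0444), and its WT level was higher in CAST-F1 than in BL6J by 1.88 ± 0.17 on the log2 scale.

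Other genes with a negative difference fell in CAST-F1 hearts. Ephb1, a receptor tyrosine kinase for ephrin-B ligands, had 10.9, 13.4 and 12.7 CPM in CAST-F1 KO hearts, against 66.2, 67.1 and 71.3 CPM in CAST-F1 WT hearts. It had 4.59, 4.68, 3.46 and 2.59 CPM in BL6J KO hearts, against 8.52, 6.56, 4.63 and 5.53 CPM in BL6J WT hearts. Ephb1 fell in both, the BL6J groups touching at 1 library, and the WT level was higher in CAST-F1 by 3.40 ± 0.18 on the log2 scale. The change was -2.47 ± 0.19 (SE) in CAST-F1 and -0.75 ± 0.22 in BL6J, a difference of -1.72 ± 0.29 (adjusted p = 0.0277).

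Arc, an immediate early gene best known for its part in synaptic plasticity, had 4.47, 4.10 and 5.34 CPM in CAST-F1 KO, against 14.1, 13.5 and 21.2 CPM in CAST-F1 WT. It had 4.22, 10.6, 3.81 and 4.82 CPM in BL6J KO, against 4.18, 4.44, 2.54 and 3.68 CPM in BL6J WT. CAST-F1 WT hearts were the high group, and BL6J KO 2 was the single high BL6J heart. The difference of -2.43 ± 0.45 (adjusted p = 0.0398) was -1.99 without BL6J KO 2 (adjusted p = 0.0324, from 0.000857 to 0.135 over all alternatives). Epn3, an endocytic adaptor of the epsin family, had 11.9, 10.1 and 16.01 CPM in CAST-F1 KO, against 61.2, 65.8 and 49.2 CPM in CAST-F1 WT. It had 29.2, 31.7, 32.6 and 54.9 CPM in BL6J KO, against 54.1, 56.8, 63.6 and 65.5 CPM in BL6J WT. WT levels were alike in range, and the KO hearts of CAST-F1 lay below those of BL6J. Its difference was -1.53 ± 0.29 (adjusted p = 0.0444).

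Prob1, Tnfaip2, Pcx and Lamb2 had smaller negative differences, from -0.81 to -0.99. Pcx encodes pyruvate carboxylase, which refills the tricarboxylic acid cycle with oxaloacetate, and had 28.7, 23.7 and 26.4 CPM in CAST-F1 KO, against 59.0, 71.2 and 57.6 CPM in CAST-F1 WT. It had 36.7, 39.99, 34.8 and 41.0 CPM in BL6J KO, against 52.1, 43.8, 51.4 and 52.6 CPM in BL6J WT. Pcx fell without overlap in both, with changes of -1.25 ± 0.13 (SE, log2) in CAST-F1 and -0.39 ± 0.11 in BL6J. The Pcx difference passed in 2 of 14 fits without 1 library. Pcx overlaps the Lrfn4 gene on the opposite strand by 3883 bases, and use of strand in counting is not given, so its reads may be shared. Lamb2, the laminin beta 2 chain of basement membranes, had log2 changes of -1.14 ± 0.12 in CAST-F1 and -0.34 ± 0.10 in BL6J. Prob1 had log2 changes of -1.58 ± 0.14 in CAST-F1 and -0.59 ± 0.11 in BL6J. All of Prob1 lies within the annotated bounds of the SPATA24 gene on the same strand, so its reads may be shared. Tnfaip2, a gene induced by tumor necrosis factor, had 31.7, 37.5 and 35.1 CPM in CAST-F1 KO, against 91.2, 73.2 and 70.05 CPM in CAST-F1 WT. It had 45.2, 61.9, 50.7 and 55.04 CPM in BL6J KO, against 55.2, 60.2, 62.5 and 64.3 CPM in BL6J WT. Tnfaip2 fell in CAST-F1 without overlap, with a log2 change of -1.17 ± 0.14, and in BL6J the groups overlapped and the change of -0.19 ± 0.11 did not pass.

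Where the 2 backgrounds stood apart differed among the 17. KO levels differed between CAST-F1 and BL6J for 15 of them, against 11.3% of all genes, and WT levels for 6, against 11.9% of all genes. For 4 genes, Bckdhb, Fmn1, Ephb1 and Blvrb, both did, and for Arc the WT levels alone did. These contrasts add up to the difference that chose the genes, so they only describe it.

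A panel of 20 genes of the stress response, heart stress, matrix, contraction and mitochondria was read in the same fit, and Taz alone passed. Asns, the asparagine synthetase and a classic ATF4 target, had 260, 258 and 270 CPM in CAST-F1 KO hearts, against 3.91, 3.98 and 3.80 CPM in CAST-F1 WT hearts. It had 426, 244, 383 and 384 CPM in BL6J KO hearts, against 5.58, 2.90, 4.40 and 4.09 CPM in BL6J WT hearts. It rose strongly in both, and the difference was -0.31 ± 0.31 (SE; 95% interval -0.95 to 0.33). For Atf4 the difference was -0.20 (interval -0.63 to 0.22), for Atp2a2, the calcium pump SERCA2a, -0.14 (interval -0.46 to 0.19), and for the cytochrome oxidase subunit Cox7a1 -0.04 (interval -0.49 to 0.42). For Nnt, the nicotinamide nucleotide transhydrogenase of the inner membrane, it was -0.21 (interval -0.52 to 0.10). For these genes the intervals leave out a 2-fold difference in either direction, Asns coming nearest to it.

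Other panel genes had wide intervals. Nppa, the atrial natriuretic peptide, had 1744, 1940 and 1996 CPM in CAST-F1 KO hearts, against 48.0, 54.8 and 35.5 CPM in CAST-F1 WT hearts. It had 1789, 881, 1493 and 1661 CPM in BL6J KO hearts, against 490, 119, 132 and 186 CPM in BL6J WT hearts. It rose in both, and every CAST-F1 WT heart was below every BL6J WT heart. Its difference of 2.71 ± 0.66 (SE; interval 1.25 to 4.17) had an adjusted p of 0.238 in edgeR and of 0.0111 in DESeq2, and of 0.0111 to 0.632 over all alternatives. Myh7, the slow myosin heavy chain, had 14.1 to 160 CPM in BL6J WT hearts and a difference of -1.83 (interval -4.52 to 0.86). Mthfd2, a mitochondrial enzyme of the folate cycle, had a difference of 1.65 (interval 0.56 to 2.75, adjusted p = 0.333), with 12 reads in all CAST-F1 WT libraries and 55 in all BL6J WT libraries. Fgf21, a secreted stress hormone, had 506 reads over 3 CAST-F1 KO libraries and 1 read over the CAST-F1 WT libraries, and 1090 reads over 4 BL6J KO libraries and 2 over the BL6J WT libraries, too few in WT for a comparison of folds.

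**Figure D3:**
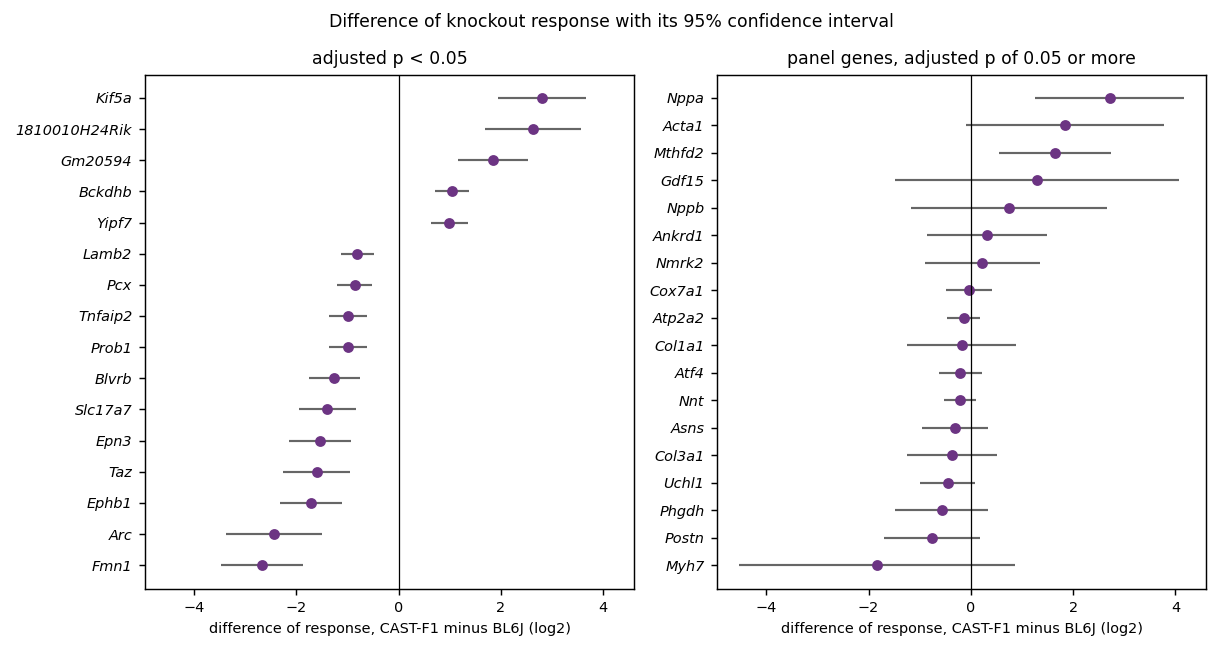
Difference of knockout response, CAST-F1 minus BL6J, on the log2 scale, with points for the estimate and lines for its 95% confidence interval. On the left are 16 of the 17 genes that passed, from Kif5a at 2.80 down to Fmn1 at -2.67, and on the right 18 panel genes that did not, Fgf21 left out for its few WT reads. Nppa lies near Kif5a in size with a wider interval.

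The promoter of Asns is shown because it carries the letters of the element through which ATF4 is known to act, beside that of 1810010H24Rik, whose rise differed between the backgrounds. Both windows are from RefSeq (GRCm38.p6), 250 bases before to 50 after the start, 5′ to 3′ on the gene's strand, at chr6:7693160-7693459 (minus) and chr11:107025619-107025918 (plus). Capitals mark a match to TGATGNAAN, the C/EBP-ATF element, searched on both strands with N for any base.
Asns: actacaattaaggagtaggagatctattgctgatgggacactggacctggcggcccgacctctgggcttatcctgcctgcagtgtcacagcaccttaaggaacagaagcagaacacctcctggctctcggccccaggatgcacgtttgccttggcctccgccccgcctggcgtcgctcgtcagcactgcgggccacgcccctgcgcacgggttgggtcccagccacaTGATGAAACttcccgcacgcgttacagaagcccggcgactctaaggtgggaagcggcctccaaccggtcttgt
1810010H24Rik: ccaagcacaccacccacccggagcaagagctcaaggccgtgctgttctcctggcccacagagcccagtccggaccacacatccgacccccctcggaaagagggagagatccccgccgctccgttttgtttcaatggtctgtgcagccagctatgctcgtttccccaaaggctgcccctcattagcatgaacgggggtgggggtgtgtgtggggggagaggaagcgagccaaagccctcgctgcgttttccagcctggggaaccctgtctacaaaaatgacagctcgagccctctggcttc
The letters stood in 3.95% of all 32851 RefSeq windows. Of the 28 windows of integrated stress response genes, 9 (32.1%) held them, that of Asns among them. Of the 15 windows of the 17 genes, which covered 11 of them, 0 held them, which says only that these letters were not in those windows.

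Gene lists were read in the same fit. With all 14 libraries, none of the listed genes other than Taz passed in the difference. Without BL6J KO 2, 1 gene of the serine, glycine, proline and folate list passed, as did 1 of the NRF2 list described below. Taz then had an adjusted p of 0.0524 in edgeR. In CAST-F1 hearts 20 of the 25 genes on the integrated stress response list rose and 1 fell, against 15.8% and 14.7% of all genes. In BL6J hearts 19 of them rose and 1 fell, against 17.1% and 15.1% of all genes. The median difference of these 25 was 0.01, against -0.02 over all genes. Without BL6J KO 2 it was -0.102, against -0.001 over all genes. With all libraries, 2 of the 25 were positive and 0 negative at an unadjusted p under 0.05, against 3.53% and 4.94% of all genes. Of 20 cytosolic tRNA synthetases 18 rose in each background. At an unadjusted p under 0.05, 0 of the 20 were negative in the difference, and 2 were without BL6J KO 2. Of 15 genes of serine, glycine, proline and folate metabolism 11 rose in each background. Their median change was 2.15 in CAST-F1 and 2.71 in BL6J, with a median difference of -0.17. At an unadjusted p under 0.05, 1 of the 15 was positive and 3 were negative, against 3.53% and 4.94% of all genes. Of 43 cytosolic ribosomal protein genes 37 rose in CAST-F1 and 41 in BL6J. Of 29 genes of fatty acid uptake and oxidation 17 fell in CAST-F1 and 19 in BL6J, and of 36 complex I genes 12 fell in CAST-F1 and 16 in BL6J. The median differences of these 2 lists were -0.01 and 0.00.

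Genes of the antioxidant response controlled by NRF2 leaned below 0 in the difference. Of 18 tested, 6 rose and 2 fell in CAST-F1, against 15.8% and 14.7% of all genes. In BL6J 14 rose and 2 fell, against 17.1% and 15.1% of all genes. No member passed the adjusted test of the difference, and at an unadjusted p under 0.05 there were 7 with a negative and 0 with a positive difference, against 4.94% and 3.53% of all genes. Their median difference was -0.51. The 7 were Srxn1, Nqo1, Gstm1, Txnrd1, Fth1, Ftl1 and Txn1, named after their values were seen. Srxn1, sulfiredoxin, had 60.9, 49.8 and 59.0 CPM in CAST-F1 KO hearts, against 21.2, 24.1 and 28.6 CPM in CAST-F1 WT hearts. It had 122, 60.8, 114 and 120 CPM in BL6J KO hearts, against 26.7, 27.2, 21.1 and 21.7 CPM in BL6J WT hearts. Srxn1 rose in both, and BL6J KO 2 alone among the BL6J KO hearts was near the CAST-F1 KO level. Its difference of -0.91 ± 0.29 (SE) had an adjusted p of 0.337, and without BL6J KO 2 it was -1.08 with an adjusted p of 0.0184, the lowest of its alternatives, whose highest was 0.68. Nqo1, a quinone reductase, had a log2 change of -0.18 ± 0.17 in CAST-F1, which did not pass, and rose by 0.53 ± 0.14 in BL6J.

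**Figure D4:**
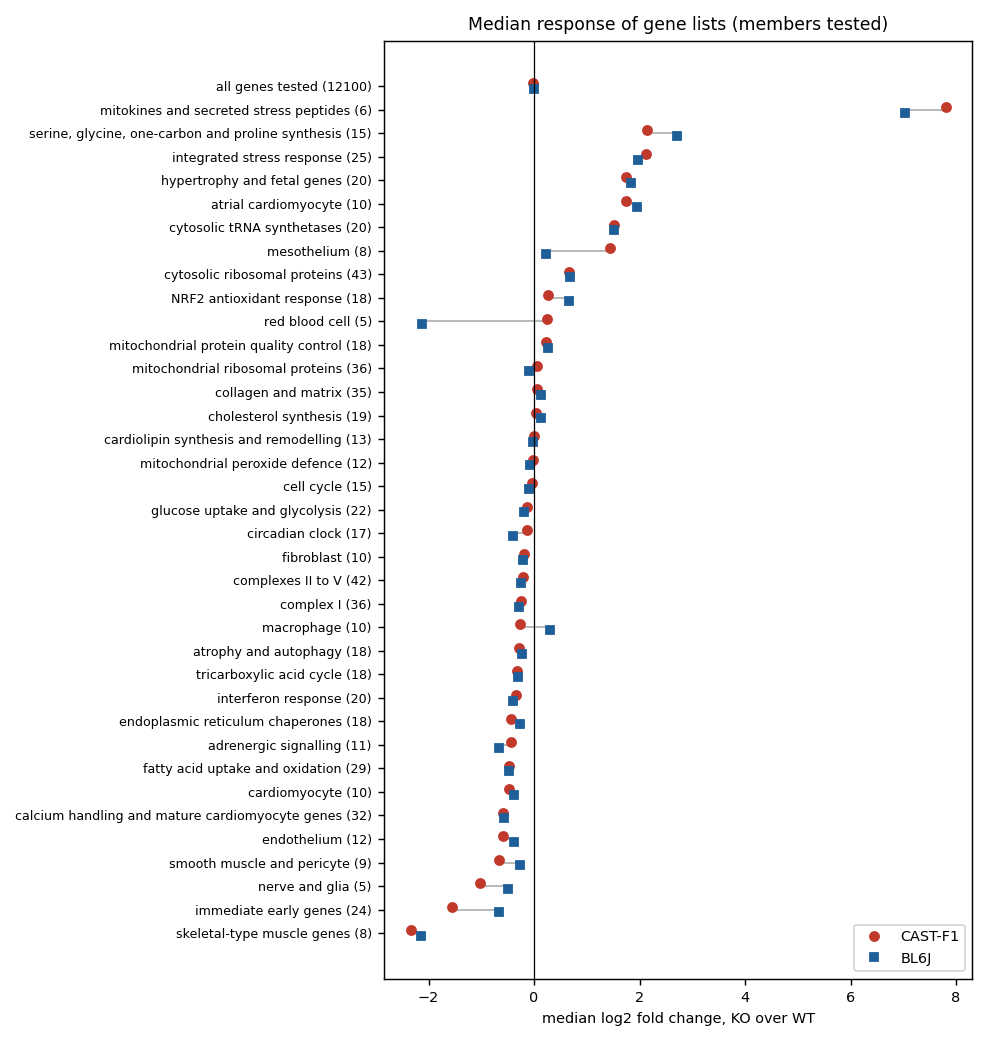
Median log2 fold change of KO over WT for each gene list with at least 5 tested members, with the number tested in brackets. Red circles are CAST-F1 and blue squares BL6J. The integrated stress response and tRNA synthetase lists have close medians, while the mesothelium and immediate early lists lie further apart. So do others, among them the mitokine, serine and one-carbon, macrophage, nerve and glia, and NRF2 lists. The red blood cell median rests on 5 genes that vary widely between libraries.

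Immediate early genes and mesothelial markers also had medians away from 0. Of 24 immediate early genes 1 rose and 9 fell in CAST-F1, against 15.8% and 14.7% of all genes, and 2 rose and 4 fell in BL6J, against 17.1% and 15.1%. Their median difference was -0.79, and 3 members were negative at an unadjusted p under 0.05, against 4.94% of all genes. Of 8 mesothelial markers 6 rose in CAST-F1, against 15.8% of all genes, and 1 rose and 1 fell in BL6J, against 17.1% and 15.1%. Their median difference was 1.18, and 3 members were positive at an unadjusted p under 0.05, against 3.53% of all genes. The summed mesothelial level was 38.8 to 68.6 CPM in CAST-F1 KO and 14.5 to 34.7 CPM in CAST-F1 WT. It was 46.5 to 66.6 CPM in BL6J KO and 40.5 to 69.6 CPM in BL6J WT, so the CAST-F1 WT hearts were the low group. In bulk tissue, more cells of a type and more RNA per cell cannot be told apart. Acta2, a smooth muscle actin that fetal heart muscle also uses, had 654, 734 and 997 CPM in CAST-F1 KO, against 50.8, 59.9 and 94.0 CPM in CAST-F1 WT. It had 1758, 2209, 1252 and 1116 CPM in BL6J KO, against 337, 539, 411 and 397 CPM in BL6J WT. Acta2 rose in both, CAST-F1 starting from the lower WT level, and its difference of 1.63 ± 0.39 had an adjusted p of 0.194. The 9 tested smooth muscle and pericyte markers, Acta2 among them, had a median difference of the other sign, -0.36. At an unadjusted p under 0.05, 1 was positive and 2 were negative, against 3.53% and 4.94% of all genes.

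Macrophage and red blood cell markers varied beside these results. The sum of 10 macrophage markers was 169 to 233 CPM in CAST-F1 KO, 169 to 343 in CAST-F1 WT, 341 to 709 in BL6J KO and 285 to 540 CPM in BL6J WT, and 0 of the 10 passed in the difference. Their median difference was -0.54, from medians of -0.26 in CAST-F1 and 0.30 in BL6J. Of the 10, 1 was negative at an unadjusted p under 0.05, against 4.94% of all genes. The sum of 7 red blood cell markers was 81.1 to 155 CPM in CAST-F1 KO, 15.3 to 199 in CAST-F1 WT, 105 to 319 in BL6J KO and 13.6 to 2519 CPM in BL6J WT. Their part in the differences was not tested.

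The number of genes that passed depended on single libraries. Leaving out CAST-F1 KO 1, KO 2 or KO 3 left 2, 2 and 3 genes, and leaving out CAST-F1 WT 1, WT 2 or WT 3 left 3, 12 and 11. Leaving out BL6J KO 1, KO 2, KO 3 or KO 4 gave 29, 23, 19 and 7 genes, and leaving out BL6J WT 1, WT 2, WT 3 or WT 4 gave 5, 4, 6 and 10. Kif5a and Fmn1 passed in all 14 of these fits and Bckdhb in 12, while 12 of the 17 passed in fewer than 7. None of the 17 changed sign under any alternative.

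GC content moved with the negative differences. The correlation of a gene's level, centred on its mean over the libraries, with transcript GC was -0.187 to -0.106 (Spearman rho) in CAST-F1 KO libraries, 0.080 to 0.132 in CAST-F1 WT, -0.264 to 0.064 in BL6J KO and 0.032 to 0.163 in BL6J WT. Of the 12 genes with a negative difference, 8 were in the highest of 5 equal groups of genes by GC content, at 55.6% to 72.8%. Among them were Lamb2, Pcx and Epn3. Removing the trend of each library was an alternative chosen after seeing the data. With it removed 10 genes passed, 5 positive and 5 negative, all among the 17. The 7 that did not were Taz, Epn3, Slc17a7, Blvrb, Tnfaip2, Pcx and Lamb2, with adjusted p from 0.0569 to 0.0771. In this order their differences were -1.60, -1.53, -1.39, -1.26, -0.98, -0.86 and -0.81 before the removal. After it they were -1.597, -1.483, -1.342, -1.213, -0.931, -0.814 and -0.763. In the same order the GC contents of these 7 were 47.6%, 57.7%, 56.6%, 53.7%, 57.3%, 57.7% and 58.8%. Of the negative genes that still passed, Fmn1, Ephb1, Arc and Prob1 had 44.9%, 52.7%, 59% and 59.5%. The part of GC content in the differences was not tested.

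**Figure D5:**
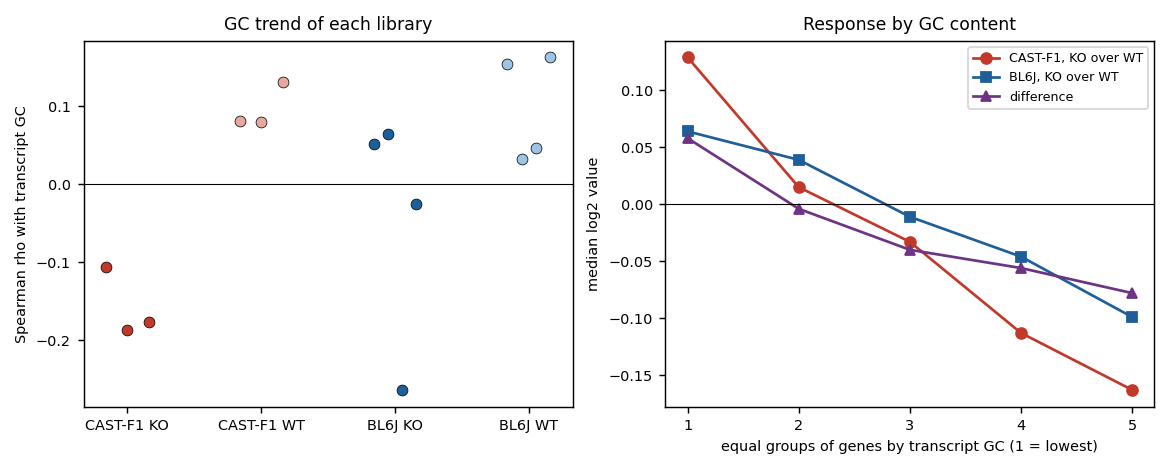
Left, Spearman rho across genes between transcript GC content and the level of each library, by group from CAST-F1 KO to BL6J WT, each point a library. Right, median log2 change of KO over WT in CAST-F1 and in BL6J, and their difference, in 5 equal groups of genes by GC content. The 3 CAST-F1 KO libraries lie below 0, as do BL6J KO 3 and, at -0.025, BL6J KO 4. The median difference goes from 0.058 in the lowest GC group to -0.078 in the highest.

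The AJ-F1 hearts, which share no library with either side, were set beside the 17 genes in a fit to all 21 libraries. Knockout changed 3521 of 12333 genes in AJ-F1 (28.5%), and 10 of the 17 among them. The AJ-F1 change lay between those of CAST-F1 and BL6J for 16 of the 17, nearer CAST-F1 for 9 and nearer BL6J for 8, which is a description, since the genes were chosen for a wide gap. Kif5a had 15.3, 11.3 and 19.1 CPM in AJ-F1 KO hearts, against 1.496, 1.44, 0.984 and 1.203 CPM in AJ-F1 WT hearts, a log2 change of 3.55 ± 0.24 (SE). 1810010H24Rik had 13.7, 12.4 and 13.8 CPM in AJ-F1 KO hearts, against 1.63, 2.60, 4.10 and 3.21 CPM in AJ-F1 WT hearts, a change of 2.21 ± 0.28. Both rose without overlap, to levels below those of CAST-F1 KO hearts. Taz changed by -4.49 ± 0.25 in AJ-F1, close to -4.51 in CAST-F1 and beyond -2.90 in BL6J in the same fit. Fmn1 had 29.8, 39.0 and 40.6 CPM in AJ-F1 KO, against 31.0, 36.4, 14.4 and 20.4 CPM in AJ-F1 WT, and these groups overlapped. Ephb1, the exception, changed by -2.55 ± 0.23 in AJ-F1, slightly beyond the -2.46 of CAST-F1.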

How the data were processed

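RNA of heart ventricle was sequenced from stranded polyA libraries, per the labels' protocols. Per the submitters' processing notes the tools were HISAT, featureCounts and DESeq2, and the build was GRCm38.p6. Tool versions, settings and use of strand are not given in the sources used here. The authors deposited raw read counts per gene and library for 14732 genes, each with at least 10 reads in all, and these were used. A further 42 per-sample columns of transformed values were not used. Samples were grouped by labelled background and genotype.

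Counts of the 14 libraries were fitted with edgeR 4.0.16 in R 4.3.3 (TMM scaling, filterByExpr, robust quasi-likelihood, 4 group means, 2-sided F test, Benjamini-Hochberg over 12100 genes, threshold 0.05). The standard error is the size of the log2 estimate over the root of F. The scripts were tested on simulated data. Named genes were the genes that passed, a panel of 20, and others said to be chosen after their values were seen; genes withheld from the text are not reported here. The members and lists were chosen with earlier results of these data known. Alternatives were other scalings, filters and tests (DESeq2 1.42.0, limma 3.58.1), all 21 libraries, a replicate block, GC removal (lowess span 0.3) and leaving out each library. GC content was matched by symbol for 12004 genes (99.2%).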

Additional observations from a re-analysis of the deposited data

Results flagged for a closer look

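Of the 17 genes that passed the test of the difference itself, 16 are given here with its value, the knockout response in CAST-F1 minus that in BL6J on the log2 scale. The positive values were 2.80 for Kif5a, 2.62 for 1810010H24Rik, 1.85 for Gm20594, 1.04 for Bckdhb and 0.99 for Yipf7. The negative values were -2.67 for Fmn1, -2.43 for Arc, -1.72 for Ephb1, -1.60 for Taz, -1.53 for Epn3, -1.39 for Slc17a7, -1.26 for Blvrb, -0.99 for Prob1, -0.98 for Tnfaip2, -0.86 for Pcx and -0.81 for Lamb2.

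In 8 of 84 groups of 4 libraries tested, 1 library lay further from the others than Dixon's 95% critical value allows, where chance alone gives about 5%. The lowest BL6J KO libraries so marked were BL6J KO 2 for Kif5a (8.51 CPM) and Srxn1 (60.8 CPM), BL6J KO 3 for Slc17a7 (77.4 CPM) and BL6J KO 1 for Lamb2 (244 CPM). The highest were BL6J KO 2 for Arc (10.6 CPM) and BL6J KO 4 for Epn3 (54.9 CPM). In BL6J WT, WT 2 was lowest for Pcx (43.8 CPM) and WT 1 highest for Ankrd1 (2060 CPM). BL6J KO 2 accounted for 3 of the 8.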

How the results depend on the processing

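The count of 17 genes was 18 with DESeq2 size factors. It was 17, the same genes, with a filter of at least 1 CPM in at least 3 libraries. With no filter on low counts it was also 17, 4 positive and 13 negative, with 16 of the 17 among them. With upper-quartile factors it was 15, 6 positive and 9 negative, against 5 and 12. It was 7 without robust estimation, 4 with all 21 libraries in 1 fit, 60 with DESeq2's Wald test and 70 with limma-voom and sample weights, which changes the test and the weight of each library together, and both of these held all 17. With the GC trend removed it was 10. Leaving out 1 library gave 2 to 29. The cause was not tested. Whether the numbers of the replicates pair the samples is not stated. Deviations from the group mean of same-numbered KO and WT libraries had correlations of -0.064 to 0.074 in CAST-F1 and -0.187 to 0.09 in BL6J. With so few libraries per group these values cannot settle it. A replicate block gave 9 genes, 7 of the 17 among them. The counts for CAST-F1 and for BL6J alone stayed within 1.5 times of their values. Reversed signs occurred only in panel genes near 0 that never passed: Nmrk2 at -0.321 with weighted limma-voom, Cox7a1 at 0.007 with the GC trend removed, and, over fits without 1 library, Nmrk2 from -0.439 to 0.484, Cox7a1 from -0.161 to 0.077, Fgf21 from -0.303 to 1.931, Ankrd1 from -0.158 to 0.56, Col1a1 from -0.43 to 0.341 and Col3a1 from -0.567 to 0.104. Of the named genes that did not pass, Nppa passed under DESeq2, Acta2 and Atp2a1 under DESeq2 and weighted limma-voom, Aldh1l2 under the same tests, Acta2 also with the block, and Srxn1 without BL6J KO 2. How depth and the number of libraries limit the calls was not tested.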

Other observations

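Chosen after their values were seen, 4 more genes had sizeable estimates that did not pass. Atp2a1, the fast skeletal muscle calcium pump SERCA1, had 0.638, 0.432 and 0.508 CPM in CAST-F1 KO hearts, against 1.30, 0.797 and 1.38 CPM in CAST-F1 WT hearts. It had 6.43, 5.53, 4.68 and 11.9 CPM in BL6J KO hearts, against 0.465, 0.772, 2.08 and 2.05 CPM in BL6J WT hearts. The difference was -3.55 ± 0.82 (SE, edgeR adjusted p = 0.105), from 7 reads in all CAST-F1 KO libraries. Sesn2, sestrin 2, a stress-induced inhibitor of mTORC1 signalling, had 79.6, 74.4 and 97.6 CPM in CAST-F1 KO, against 4.84, 3.19 and 4.49 CPM in CAST-F1 WT. It had 50.1, 44.9, 48.0 and 40.8 CPM in BL6J KO, against 5.73, 2.90, 3.70 and 6.96 CPM in BL6J WT. Sesn2 rose in both, higher in every CAST-F1 KO heart, with a difference of 1.10 ± 0.31 (adjusted p = 0.238).

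Aldh1l2, a mitochondrial folate enzyme, had 84.1, 77.3 and 76.0 CPM in CAST-F1 KO, against 19.7, 19.9 and 13.97 CPM in CAST-F1 WT. It had 56.0, 68.9, 81.6 and 68.8 CPM in BL6J KO, against 4.65, 4.25, 9.02 and 10.2 CPM in BL6J WT. KO levels overlapped between the backgrounds and WT levels did not, and the difference was -1.17 ± 0.31 (adjusted p = 0.222). Lrrn4, a mesothelial marker, had a difference of 1.60 ± 0.56 (adjusted p = 0.406).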
